A study of Homo sapiens with 10 samples.

Results

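The transcripts of 10 Krüppel-like factors (KLFs) were followed in 2 breast cancer cell lines with and without the kinase inhibitor PKC412. The members were chosen by gene symbol alone as KLF2, KLF3, KLF4, KLF5, KLF6, KLF7, KLF9, KLF10, KLF11 and KLF13, and all 10 were found among the 23426 gene symbols of the files. MDA-MB-468, labelled basal, is an established triple-negative line, and ZR75-1, labelled luminal, is an established line that carries the estrogen receptor. Cells of each line were harvested after 6 h in DMSO, the solvent control (n = 2), or in PKC412 (midostaurin, a staurosporine derivative that inhibits several kinases, n = 3), so that 10 samples were measured by RNA-seq in all. PKC412 was dosed at 1 μM by the labels, but some legends of the study give a lower dose for the same experiment, so the dose is uncertain. Nothing in the labels says that replicates came from separate cultures, so the spread between them may be technical, and each subtype was represented by 1 line, so that line and subtype cannot be told apart. Expression is given as FPKM, the authors' fragment count per length of transcript and number of mapped fragments, and the number of reads behind a value is unknown.

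KLFs are zinc finger transcription factors that share a DNA-binding domain of C2H2 fingers and bind GC-rich elements and the related CACCC element, which they share with the SP factors. KLF2, KLF4, KLF5, KLF6 and KLF7 belong to a branch that recruits acetyltransferases and is mostly known for activation, although KLF4 can also repress. KLF3 belongs to a branch that represses through CtBP, and KLF9, KLF10, KLF11 and KLF13 belong to a branch that binds the SIN3A corepressor. In epithelia, KLF4 is known for cell cycle exit and differentiation, KLF5 for proliferation of basal and progenitor cells, and KLF10 and KLF11 as early genes of TGF-β signalling. KLF2 is best known from endothelium and quiescent T cells, where the kinase ERK5 and MEF2 factors induce it.

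The labels of the lines were checked against marker genes. The summed FPKM of 8 basal markers was 2410 to 2671 in the MDA-MB-468 samples, most of it from the keratins KRT5 and KRT17, and 19.9 to 26.1 in the ZR75-1 samples. Of the 7 basal markers tested in DMSO, 6 were higher in MDA-MB-468 and 1, CDH3, was lower, while TP63 was under 0.1 FPKM in every sample of both lines. The summed FPKM of 8 luminal markers (among them ESR1 and GATA3) was 9494 to 15582 in ZR75-1 and 2047 to 4865 in MDA-MB-468, where PGR was listed at 0 in every sample. Most of the sum came from TFF1, KRT18 and KRT19 in ZR75-1 and from KRT18 and KRT19 in MDA-MB-468. Of the 8 luminal markers tested in DMSO, 6 were lower in MDA-MB-468 and 0 higher. Markers of endothelium, where KLF2 is best known, summed to 0.0693 to 0.152 FPKM in ZR75-1 and to 0.615 to 1.13 FPKM in MDA-MB-468. Leukocyte markers summed to 1.37 to 1.66 and 11.9 to 23.4 FPKM, with PTPRC and CD3E listed at 0 in every DMSO sample and most of the MDA-MB-468 sum from CD14, at 20.2 to 23.3 FPKM in DMSO and 11.7 to 13.6 FPKM in PKC412, and fibroblast markers to 2.25 to 11.1 and 0.916 to 1.58 FPKM. Samples of 1 group correlated across genes with r between 0.957 and 0.983 over 8 pairs, and samples of different lines with r between 0.849 and 0.899 over 25 pairs, where genes are not independent replicates.

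Promoters are shown for KLF2, KLF4, KLF5 and KLF11, the members with a difference between the lines that passed the test described further on, so that their sequence can be read beside their values. Each is a window of 300 bases on the coding strand, from 250 bases before to 50 bases after a start site, taken from RefSeq on GRCh38.p14. Of the 10 members, 8 had at least 1 such window and 13 windows were found in all. The KLF2 window lies at chr19:16324576-16324875 on the plus strand, and its capitals mark a match to the MEF2 motif. The KLF4 window lies at chr9:107489720-107490019 on the minus strand, and its capitals mark GC boxes on either strand. KLF5 had a window at chr13:73054726-73055025, with the TATAAA motif in capitals, and another at chr13:73058755-73059054, with GC boxes in capitals, both on the plus strand. The KLF11 window shown lies at chr2:10043971-10044270 on the plus strand, and its capitals mark the cAMP response element.
KLF2: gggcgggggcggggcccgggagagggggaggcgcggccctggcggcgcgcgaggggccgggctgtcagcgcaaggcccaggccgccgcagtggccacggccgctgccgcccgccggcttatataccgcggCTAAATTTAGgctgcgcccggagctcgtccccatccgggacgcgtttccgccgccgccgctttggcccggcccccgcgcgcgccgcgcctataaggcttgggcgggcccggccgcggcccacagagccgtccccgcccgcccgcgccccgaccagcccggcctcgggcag
KLF4: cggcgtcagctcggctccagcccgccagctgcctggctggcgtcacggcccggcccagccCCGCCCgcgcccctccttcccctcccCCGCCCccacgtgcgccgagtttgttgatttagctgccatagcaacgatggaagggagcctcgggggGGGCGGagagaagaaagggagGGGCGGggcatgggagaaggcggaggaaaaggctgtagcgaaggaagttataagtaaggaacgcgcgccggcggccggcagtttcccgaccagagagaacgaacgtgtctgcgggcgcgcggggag
KLF5 upstream start: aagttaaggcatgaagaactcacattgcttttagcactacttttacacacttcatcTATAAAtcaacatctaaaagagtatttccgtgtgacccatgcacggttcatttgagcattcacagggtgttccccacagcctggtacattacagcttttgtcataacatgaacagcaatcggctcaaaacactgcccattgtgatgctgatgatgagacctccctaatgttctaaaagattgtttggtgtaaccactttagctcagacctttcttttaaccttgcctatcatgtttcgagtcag
KLF5 downstream start: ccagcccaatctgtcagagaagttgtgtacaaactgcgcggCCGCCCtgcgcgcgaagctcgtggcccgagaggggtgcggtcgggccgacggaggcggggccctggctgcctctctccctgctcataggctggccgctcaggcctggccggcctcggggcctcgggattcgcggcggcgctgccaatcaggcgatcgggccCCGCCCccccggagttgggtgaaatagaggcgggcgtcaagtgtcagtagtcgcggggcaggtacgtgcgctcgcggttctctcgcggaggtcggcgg
KLF11: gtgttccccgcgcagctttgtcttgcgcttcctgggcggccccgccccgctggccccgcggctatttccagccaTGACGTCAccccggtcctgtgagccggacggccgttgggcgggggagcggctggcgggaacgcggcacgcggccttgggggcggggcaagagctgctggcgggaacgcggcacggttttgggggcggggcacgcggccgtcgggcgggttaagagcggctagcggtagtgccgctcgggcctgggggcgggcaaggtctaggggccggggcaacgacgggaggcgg

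The KLF2 window held 80.7% G and C, the KLF4 window 69%, the KLF5 windows 40.7% and 71.3% and the KLF11 window 75.3%, against a median of 58.7% over 35116 promoter windows. The MEF2 motif, searched on both strands, was found in 0.572% of all windows and, among the members, in that of KLF2 only, with its first base at position -120 from the start site. The cAMP response element (TGACGTCA, a palindrome) was found in 1.85% of all windows and, among the members, in a KLF11 window only, at position -176. TATAAA was found in 11.5% of all windows and in 1 member window, that of the upstream KLF5 start. The GC box (GGGCGG, both strands) was found in 45% of all windows and in 8 of the 13 member windows, and CACCC (both strands) in 59.9% and in 7. No member window held the AP-1 letters TGACTCA, which 4.95% of all windows held, and the CArG box was found in 1 KLF7 window and in 1.29% of all windows. These matches describe letters in the window and were not tested for binding.

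In DMSO, KLF2 set the lines apart most among the members. KLF2 (chromosome 19, 16324817 to 16327874, plus strand, GRCh38) was at 3.88 and 2.77 FPKM in the 2 MDA-MB-468 samples and at 31.1 and 26.2 FPKM in the 2 ZR75-1 samples. Both ZR75-1 samples thus lay far above both MDA-MB-468 samples. The mean was 28.7 ± 3.46 FPKM (SD, n = 2) in ZR75-1 and 3.33 ± 0.789 (SD, n = 2) in MDA-MB-468, a ratio of 8.62, and the log2 difference, MDA-MB-468 minus ZR75-1 on log2(FPKM + 1), was -2.79 ± 0.192 (SE; limma, adjusted p = 1.22e-05). In bulk RNA, fewer cells with the transcript and less transcript per cell cannot be told apart. KLF2 made up 74.9% and 52.5% of the summed FPKM of the 10 members in the ZR75-1 DMSO samples and 23.5% and 13.7% in the MDA-MB-468 DMSO samples.

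KLF4 (chromosome 9, 107484852 to 107490482, minus strand), a factor of epithelial differentiation, was likewise lower in MDA-MB-468 in DMSO, with less even replicates. It was at 0.665 and 1.17 FPKM in MDA-MB-468 and at 2.01 and 7.47 FPKM in ZR75-1. The groups did not overlap, but the higher ZR75-1 sample was 3.73 times the lower one. The log2 difference was -1.41 ± 0.462 (SE; limma, adjusted p = 0.0389). Without replicate 2 of ZR75-1 in DMSO it was -0.66 (limma, adjusted p = 0.192), and the call held under 9 of 20 alternative settings.

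KLF11 (chromosome 2, 10042849 to 10054836, plus strand), a SIN3A-binding repressor, went the other way. It was at 2.99 and 3.35 FPKM in MDA-MB-468 and at 0.713 and 1.15 FPKM in ZR75-1. Both MDA-MB-468 samples were above both ZR75-1 samples, by 3.41 times in the mean, with a log2 difference of 1.12 ± 0.261 (SE; limma, adjusted p = 0.00892). The call held under 18 of 20 alternatives and was missed without replicate 2 of MDA-MB-468 in DMSO (adjusted p = 0.0559) and without replicate 1 of ZR75-1 in DMSO (adjusted p = 0.0567), both by limma.

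KLF5 (chromosome 13, 73054976 to 73077542, plus strand), known from basal and progenitor cells of epithelia, was at 0.958 and 1.97 FPKM in MDA-MB-468 and at 0.145 and 0.569 FPKM in ZR75-1. The samples did not overlap, and the log2 difference of 0.85 (95% interval -0.25 to 1.95) did not pass the test. KLF9 (chromosome 9, 70384597 to 70414624, minus strand), a SIN3A-binding factor induced by glucocorticoid and thyroid hormone, was at 0.151 and 0.187 FPKM in MDA-MB-468 and at 0.376 and 1.10 FPKM in ZR75-1. Its samples did not overlap either, and the log2 difference of -0.54 (95% interval -1.17 to 0.086) did not pass. In all, 3 of 10 members passed the test between the lines in DMSO, 1 higher and 2 lower in MDA-MB-468, where 42.4% of the 16071 genes tested passed. For 5 members (KLF2, KLF4, KLF5, KLF9 and KLF11) the 2 lines shared no range of FPKM, where 69.6% of all genes tested were apart in this way. Neither share was above that of all genes.

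The other 5 members did not separate the lines in DMSO. KLF6 (chromosome 10, 3775996 to 3785281, minus strand), a broadly expressed activator, was at 4.31 and 5.17 FPKM in MDA-MB-468 and at 4.87 and 6.60 FPKM in ZR75-1. KLF13 (chromosome 15, 31326855 to 31435665, plus strand), a SIN3A-binding factor, was at 2.07 and 3.04 FPKM in MDA-MB-468 and at 1.33 and 2.71 FPKM in ZR75-1. KLF10, an early gene of TGF-β signalling, was at 0.591 and 1.47 FPKM in MDA-MB-468 and at 0.427 and 3.11 FPKM in ZR75-1. For each of these 3 the samples of the lines overlapped, and KLF10 had the widest spread within a group of any member above 0.1 FPKM in every sample, with 7.28 times between the ZR75-1 DMSO samples. KLF3 (chromosome 4, 38664196 to 38701042, plus strand), the CtBP-binding repressor, whose first bases lie opposite the start of the antisense transcript KLF3-AS1, was at 0.807 and 0.985 FPKM in MDA-MB-468 and at 0.426 and 0.980 FPKM in ZR75-1. KLF7 (chromosome 2, 207074137 to 207167267, minus strand), best known from developing neurons, was near the floor in both lines, at 0.098 and 0.114 FPKM in MDA-MB-468 and at 0.118 and 2.69e-08 FPKM in ZR75-1. The log2 differences of these 5 members were between -0.29 and 0.26. Their 95% intervals reached from -1.62 to 1.04 for KLF10, the widest, and from -0.51 to 0.64 for KLF7, the narrowest.

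**Figure D1:**
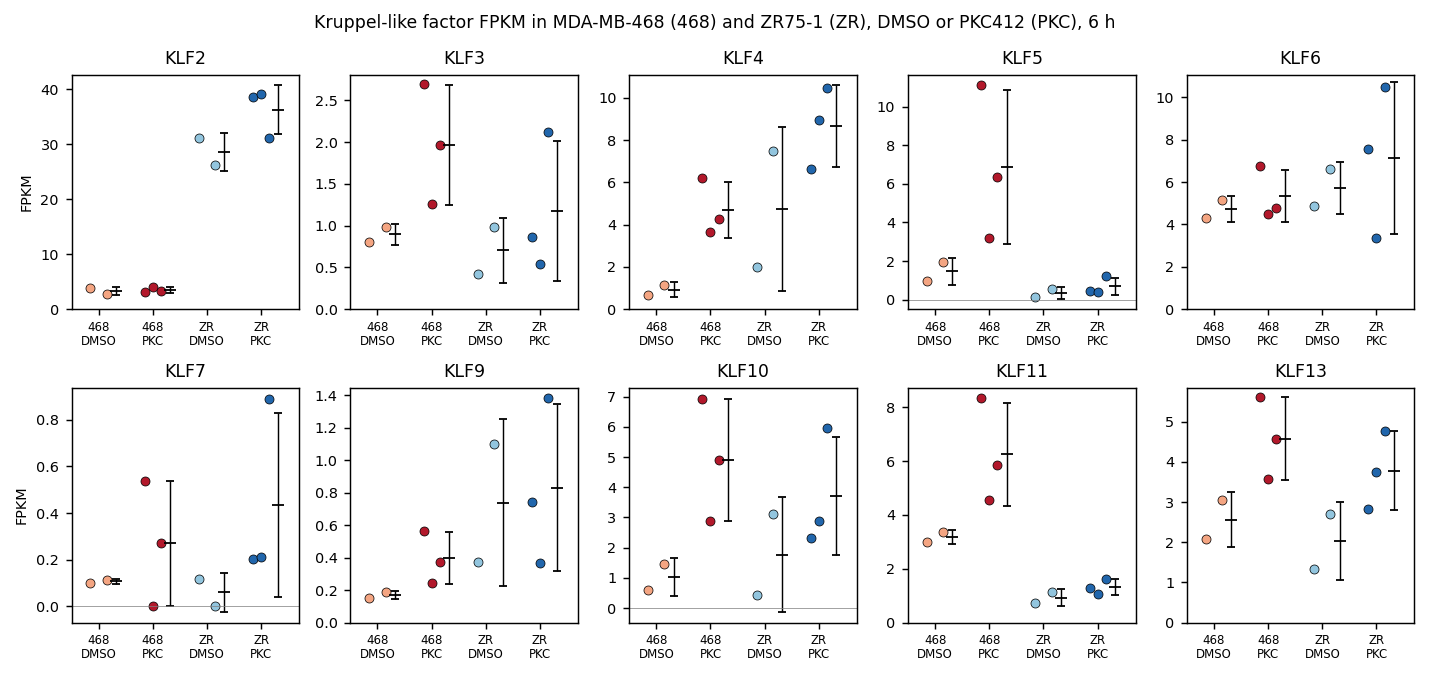
Each panel plots the FPKM of 1 member (linear axis) in every sample of the 4 groups as points, with the mean and SD beside them (n = 2 in DMSO, n = 3 in PKC412). KLF2 sits between 26.2 and 39.2 in all ZR75-1 samples and at 4.02 or below in all MDA-MB-468 samples. The ZR75-1 DMSO samples differ by 3.73 times for KLF4, 3.93 times for KLF5 and 7.28 times for KLF10.

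The order of the members also differed between the lines. FPKM is per length of transcript, so levels of different genes were set side by side, but only roughly. The transcript lengths used are not known, and the samples differed in their dependence on GC content, as given further on. The order was not adjusted for this. In MDA-MB-468 in DMSO, KLF6 led with a mean of 4.74 ± 0.611 FPKM (SD, n = 2), its samples above those of KLF2 at 3.33, and KLF2 overlapped with KLF11 at 3.17 and KLF11 with KLF13 at 2.56. KLF5, KLF10, KLF4 and KLF3 followed between 1.46 and 0.896 FPKM, each overlapping with the next, and KLF9 at 0.169 and KLF7 at 0.106 FPKM stood below them. In ZR75-1 in DMSO, KLF2 at 28.7 FPKM stood above the rest, and from KLF6 at 5.74 down to KLF5 at 0.357 FPKM each member overlapped with the next. With PKC412, the leading means in MDA-MB-468 were KLF5 at 6.89 ± 3.98 and KLF11 at 6.25 ± 1.92 FPKM (SD, n = 3), and from KLF5 down to KLF2 at 3.46 FPKM, the seventh of 10, neighbours overlapped. In ZR75-1 with PKC412, KLF2 at 36.3 ± 4.46 FPKM (SD, n = 3) again stood apart from the next, KLF4 at 8.68 ± 1.93.

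With PKC412 in MDA-MB-468, no member passed the test, although KLF4, KLF5 and KLF10 were listed at several times their DMSO level. KLF4 was at 0.665 and 1.17 FPKM in DMSO and at 6.19, 3.63 and 4.29 FPKM in PKC412. All 3 treated samples were above both controls, by 5.13 times in the mean, and the log2 difference, PKC412 minus DMSO, was 1.56 ± 0.421 (SE; limma, adjusted p = 0.159, unadjusted p = 0.00594). KLF5 was at 0.958 and 1.97 FPKM in DMSO and at 11.1, 3.20 and 6.34 FPKM in PKC412. Its treated samples were all above the controls too, but the highest was 3.47 times the lowest, and the log2 difference was 1.58 ± 0.436 (SE; limma, adjusted p = 0.166, unadjusted p = 0.00670). Without replicate 2 of MDA-MB-468 in PKC412, the lowest treated sample for KLF5, its log2 difference was 1.97 (limma, adjusted p = 0.0491), the 1 of 20 alternatives under which a member passed in this contrast.

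KLF10 was at 0.591 and 1.47 FPKM in DMSO and at 6.94, 2.89 and 4.90 FPKM in PKC412, with a log2 difference of 1.52 ± 0.526 (SE; limma, adjusted p = 0.248, unadjusted p = 0.0203). KLF11, its close relative, was at 2.99 and 3.35 FPKM in DMSO and at 8.34, 4.55 and 5.86 FPKM in PKC412, with a log2 difference of 0.77 ± 0.238 (SE; limma, adjusted p = 0.213, unadjusted p = 0.0122). For both genes every treated sample was above every control, and replicate 1 in PKC412 was the highest. KLF13 was at 2.07 and 3.04 FPKM in DMSO and at 5.61, 3.57 and 4.56 FPKM in PKC412, and its log2 difference of 0.65 had a 95% interval of -0.0020 to 1.29. KLF3 was at 0.807 and 0.985 FPKM in DMSO and at 2.69, 1.25 and 1.96 FPKM in PKC412. Both members again had their treated samples above the controls without passing the test.

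KLF2 and KLF6, the members with the highest means in MDA-MB-468 in DMSO, had treated samples among their controls. KLF2 was at 3.88 and 2.77 FPKM in DMSO and at 3.06, 4.02 and 3.30 FPKM in PKC412, and the 95% interval of its log2 difference, -0.35 to 0.45, held changes of either sign. KLF6 was at 4.31 and 5.17 FPKM in DMSO and at 6.77, 4.49 and 4.78 FPKM in PKC412, with an interval of -0.74 to 1.00. KLF9 was at 0.151 and 0.187 FPKM in DMSO and at 0.566, 0.246 and 0.376 FPKM in PKC412, and KLF7 at 0.098 and 0.114 FPKM in DMSO and at 0.539, 1.72e-29 and 0.271 FPKM in PKC412. Both stayed under 1 FPKM in every sample of the line, where the added 1 of the log scale understates differences.

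In all, 0 of 10 members passed the test with PKC412 in MDA-MB-468, where 1.26% of all genes tested passed, and 4 (KLF4, KLF5, KLF10 and KLF11) had an unadjusted p under 0.05 by limma. Every treated sample was above every control for 7 members (KLF3, KLF4, KLF5, KLF9, KLF10, KLF11 and KLF13), where 39.6% of all genes tested met this. The median log2 difference was 0.63 over the members and 0.11 over all genes tested. All 10 differences were above 0 on the deposited scale and 8 after rescaling by median ratios. The rescaling moved the median of all genes by -0.12, and it moved KLF2 from 0.05 to -0.20 and KLF6 from 0.13 to -0.14. TPM scaling moved that median by 0.15 the other way.

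In ZR75-1 no member passed the test with PKC412 either. KLF2 was at 31.1 and 26.2 FPKM in DMSO and at 38.6, 39.2 and 31.2 FPKM in PKC412, a ratio of means of 1.27 with a log2 difference of 0.33 (95% interval -0.07 to 0.73). The lowest treated sample lay just above the higher control. KLF13 was at 1.33 and 2.71 FPKM in DMSO and at 2.82, 3.75 and 4.78 FPKM in PKC412, with a log2 difference of 0.68 ± 0.282 (SE; limma, adjusted p = 0.429, unadjusted p = 0.0420). KLF13 was the 1 member with an unadjusted p under 0.05 in ZR75-1, and its treated samples were above its controls in both lines.

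KLF4 was at 2.01 and 7.47 FPKM in DMSO and at 6.64, 8.94 and 10.5 FPKM in PKC412, and KLF10 at 0.427 and 3.11 FPKM in DMSO and at 2.32, 2.87 and 5.96 FPKM in PKC412. For both, replicate 2 in DMSO lay among the treated samples and replicate 1 in DMSO far below, and the log2 differences of 0.92 for KLF4 and 0.88 for KLF10 had 95% intervals of -0.05 to 1.89 and -0.33 to 2.10. KLF5 stayed low in ZR75-1, at 0.145 and 0.569 FPKM in DMSO and at 0.458, 0.387 and 1.22 FPKM in PKC412, and KLF11 was at 0.713 and 1.15 FPKM in DMSO and at 1.30, 1.05 and 1.63 FPKM in PKC412. Treated and control samples overlapped for both. KLF6 was at 4.87 and 6.60 FPKM in DMSO and at 7.57, 3.37 and 10.5 FPKM in PKC412, so that the treated samples held both its lowest and its highest value in the line.

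KLF3, KLF9 and KLF7 completed the set in ZR75-1. KLF3 was at 0.426 and 0.980 FPKM in DMSO and at 0.859, 0.542 and 2.12 FPKM in PKC412, and KLF9 at 0.376 and 1.10 FPKM in DMSO and at 0.744, 0.366 and 1.39 FPKM in PKC412. KLF7 was at 0.118 and 2.69e-08 FPKM in DMSO and at 0.201, 0.211 and 0.892 FPKM in PKC412. KLF3 and KLF9 overlapped between the groups and KLF7 did not. Of the members, 0 of 10 passed where 0.946% of all genes tested passed, and 3 (KLF2, KLF7 and KLF13) had every treated sample above every control, where 14.8% of all genes tested did. The median log2 difference was 0.32 over the members and 0.07 over all genes tested, and of the 10 differences above 0, those of KLF6 and KLF9 turned to -0.02 each under the rescaling by median ratios.

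**Figure D2:**
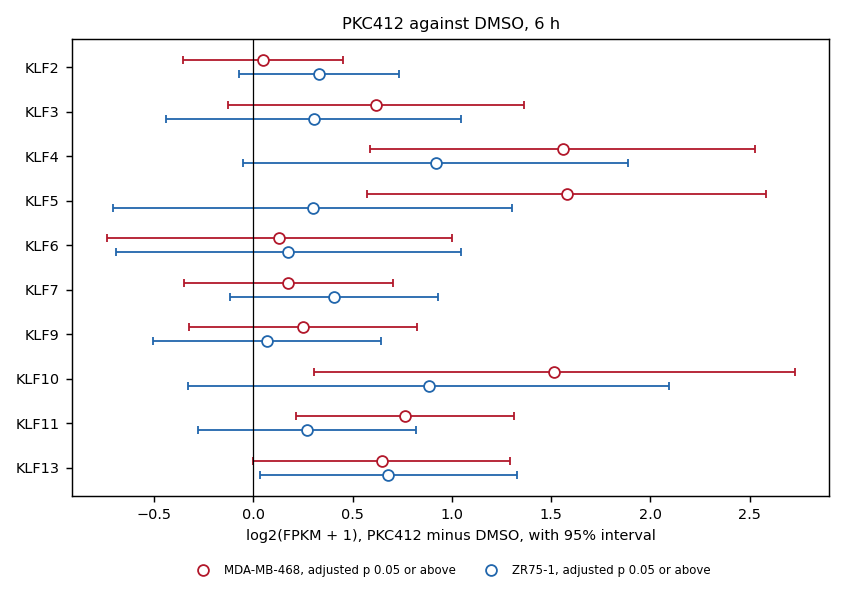
Points give the log2(FPKM + 1) difference, PKC412 minus DMSO, of each member in MDA-MB-468 (red) and ZR75-1 (blue), with 95% intervals from limma as bars, and open points mark an adjusted p of 0.05 or above. All 20 points are open and lie above 0 on the deposited scale (after median-ratio rescaling KLF2 and KLF6 in MDA-MB-468 and KLF6 and KLF9 in ZR75-1 lie below), and the intervals of KLF4, KLF5, KLF10 and KLF11 in MDA-MB-468 and of KLF13 in ZR75-1 do not reach 0.

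Whether the lines responded differently was tested on the difference of the responses itself, MDA-MB-468 minus ZR75-1. No member passed (0 of 10, against 0.268% of all genes tested), and no member had an unadjusted p under 0.05 by limma. KLF5 had the largest difference of the members, 1.28 ± 0.617 (SE; limma, adjusted p = 0.787), with a 95% interval of -0.14 to 2.70. KLF4 was at 0.64 with an interval of -0.73 to 2.01, and KLF10 at 0.63 with an interval of -1.08 to 2.35. The intervals are wide enough to hold both equal responses and several-fold differences, so the data do not show that the lines responded alike.

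Among the PKC412 samples, the lines differed in KLF2, KLF5 and KLF11. KLF2 was at 3.06, 4.02 and 3.30 FPKM in MDA-MB-468 and at 38.6, 39.2 and 31.2 FPKM in ZR75-1, a ratio of 10.5 in favour of ZR75-1, with a log2 difference of -3.06 ± 0.157 (SE; limma, adjusted p = 1.49e-06). KLF5 was at 11.1, 3.20 and 6.34 FPKM in MDA-MB-468 and at 0.458, 0.387 and 1.22 FPKM in ZR75-1, a ratio of 10.02 in favour of MDA-MB-468, with a log2 difference of 2.13 ± 0.390 (SE; limma, adjusted p = 0.00191). KLF11 was at 8.34, 4.55 and 5.86 FPKM in MDA-MB-468 and at 1.30, 1.05 and 1.63 FPKM in ZR75-1, with a log2 difference of 1.61 ± 0.213 (SE; limma, adjusted p = 0.000302). For these 3 genes every sample of 1 line lay beyond every sample of the other, and each of the calls held under 20 of 20 alternatives. The call of KLF2 in DMSO also held under 20 of 20. KLF5 passed between the lines in PKC412 and not in DMSO, and the test of the difference between these contrasts is the one above, which it did not pass.

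KLF4 was at 6.19, 3.63 and 4.29 FPKM in MDA-MB-468 and at 6.64, 8.94 and 10.5 FPKM in ZR75-1 with PKC412. The samples did not overlap, but the log2 difference of -0.77 (95% interval -1.64 to 0.10) did not pass (limma, adjusted p = 0.113). Thus 3 of 10 members passed between the lines in PKC412, 2 higher and 1 lower in MDA-MB-468, where 58.6% of all genes tested passed. For 4 members (KLF2, KLF4, KLF5 and KLF11) the lines were fully apart, where 64.4% of all genes tested were. The members thus differed between the lines no more often than genes in general. The summed FPKM of the 9 members other than KLF2 was 12.6 and 17.5 in DMSO and 48.8, 23.8 and 33.3 in PKC412 in MDA-MB-468, and 10.4 and 23.7 in DMSO and 22.9, 21.5 and 38.9 in PKC412 in ZR75-1, so that the treated samples of MDA-MB-468 lay above its controls and those of ZR75-1 did not.

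**Figure D3:**
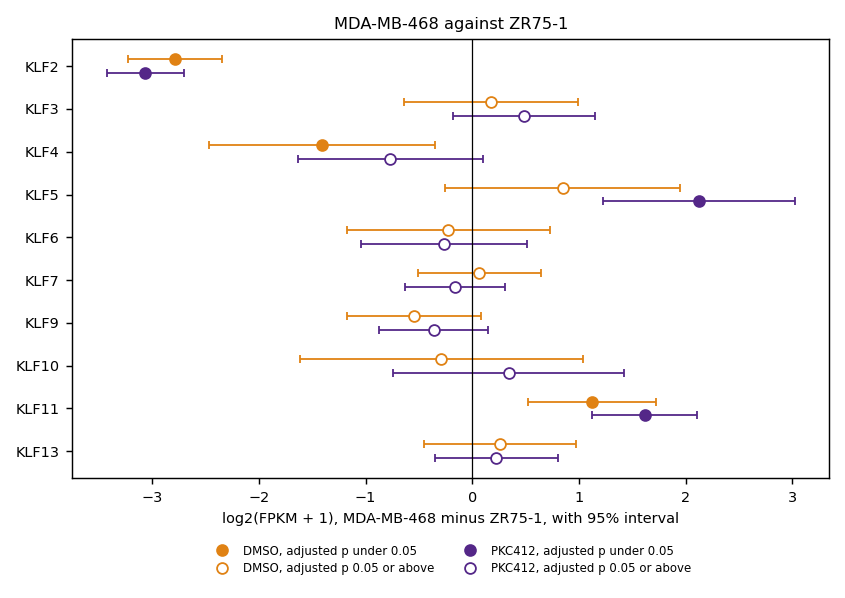
Points give the log2(FPKM + 1) difference, MDA-MB-468 minus ZR75-1, of each member in DMSO (orange) and PKC412 (purple), with 95% intervals from limma as bars, and filled points mark an adjusted p under 0.05. KLF2 lies near -3 under both agents and KLF11 above 1, KLF4 is filled in DMSO and KLF5 in PKC412.

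The dependence of FPKM on the GC content of the transcript varied between samples, and most members shared the sample of their highest FPKM in each line. For each sample, the slope of the genes' log2 deviation from their line mean on the GC content of the transcript was computed, in log2 units per 10 points of GC. In MDA-MB-468 it was 0.37 and 0.06 in DMSO and -0.29, -0.02 and -0.12 in PKC412, and in ZR75-1 it was 0.31 and -0.19 in DMSO and -0.11, 0.34 and -0.36 in PKC412. The slope thus ran with the treatment in MDA-MB-468, where both controls were above all treated samples, and overlapped between the groups in ZR75-1. In each line, 9 of 10 members, all but KLF2, had their highest FPKM in the sample of lowest slope, which was PKC412 replicate 1 in MDA-MB-468 (49.3% of all genes tested) and PKC412 replicate 3 in ZR75-1 (52.4%). The sample of highest slope held the lowest FPKM of 8 members in MDA-MB-468 (DMSO replicate 1, 53.3% of all genes tested) and of 2, KLF6 and KLF9, in ZR75-1 (PKC412 replicate 2, 28.5%).

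The transcript of KLF2, at 65.2% GC, lies at the 95.7 percentile of all genes matched, while the other members range from 41.5% for KLF3 to 57.6% for KLF13. With FPKM adjusted for GC content and length, the log2 differences in MDA-MB-468 with PKC412 were 1.51 for KLF4 (limma, adjusted p = 0.0715), 1.28 for KLF5 (adjusted p = 0.0758) and 1.26 for KLF10 (adjusted p = 0.137). KLF11 was then at 0.39 and KLF6 at -0.30. No member passed with PKC412 in either line after the adjustment. Because the slope and the treatment run together in MDA-MB-468, what each contributes there cannot be told apart.

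**Figure D4:**
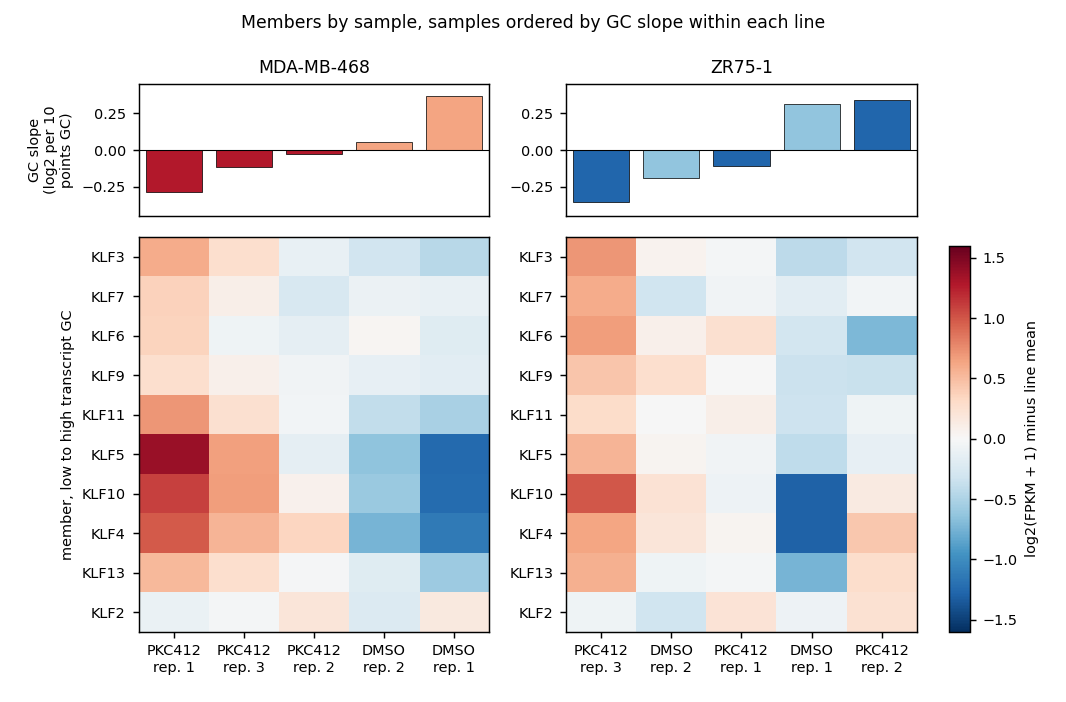
Bars give each sample's GC slope (log2 units per 10 points of transcript GC), samples ordered by it within each line, and the colour below gives each member's log2(FPKM + 1) minus its mean over the 5 samples of the line, members ordered by transcript GC. In both lines 9 of 10 members are highest in the leftmost sample, of lowest slope, and KLF2, in the bottom row, is not.

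Other KLF and SP genes, which bind the same elements, were described from a list of 17, of which 16 were in the files and 13 were tested. With PKC412 in MDA-MB-468, 0 passed the test as higher and 2 as lower. Of the 13 log2 differences, 7 were above 0 and 6 below, the highest at 1.49 without passing. SP6, a factor of epithelial appendages, fell from 10.5 and 10.2 FPKM to 5.80, 5.14 and 5.51 FPKM, by 0.80 on the log2 scale (limma, adjusted p = 0.0286), and KLF14 fell from 1.18 and 1.05 FPKM to 0.429, 0.580 and 0.339 FPKM (limma, adjusted p = 0.0119). The call of SP6 was missed with median-ratio rescaling (adjusted p = 0.0577) and TPM (adjusted p = 0.222), both by limma. No gene of the list passed in ZR75-1 or in the difference of the responses. SP6 was also lower with PKC412 in ZR75-1, at 4.80 and 4.44 FPKM in DMSO and at 2.63, 2.84 and 3.08 FPKM in PKC412. KLF16, a member of the SIN3A-binding branch, was between 6.93 and 11.4 FPKM in all 10 samples, and among PKC412 samples it was lower in MDA-MB-468 by 0.42 on the log2 scale (limma, adjusted p = 0.0119). Between the lines in DMSO, 3 genes (KLF8, KLF14 and SP6) were higher in MDA-MB-468 and 0 lower, and in PKC412 KLF12 and SP8 were higher as well, 5 in all, with KLF16 as the 1 lower. These are counts out of 13 genes, where 42.4% of all genes tested passed in DMSO and 58.6% in PKC412. KLF8, KLF12 and SP8 were low, at no more than 0.932, 0.397 and 0.163 FPKM in any sample, and SP8 was listed at 0 in every ZR75-1 sample. KLF8 in DMSO was missed with TPM (limma, adjusted p = 0.0695) and SP6 in PKC412 with median-ratio rescaling (0.39; limma, adjusted p = 0.103), which also put KLF16 at -0.80. SP1, the ubiquitous GC box factor, was between 2.12 and 6.35 FPKM and SP2 between 2.72 and 6.93 FPKM in all 10 samples.

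Of 8 genes of the ERK5 and MEF2 pathway upstream of KLF2 and KLF4, 0 passed with PKC412 in either line. The kinase ERK5 itself, MAPK7, was higher in MDA-MB-468 by 0.74 on the log2 scale in DMSO (limma, adjusted p = 0.0103) and by 0.42 in PKC412 (limma, adjusted p = 0.0369), and the second call was missed with median-ratio rescaling (0.08; limma, adjusted p = 0.596). MEF2B was at 9.81 and 5.18 FPKM in MDA-MB-468 and at 0.203 and 0.256 FPKM in ZR75-1 in DMSO, a log2 difference of 2.73 (limma, adjusted p = 0.000158). In all, 3 genes (MAPK7, MEF2B and MEF2C) were higher and 0 lower in MDA-MB-468 in DMSO, and with PKC412 MEF2A was higher as well, 4 in all. These 3 and 4 of 8 genes compare with 42.4% and 58.6% of all genes tested. MEF2C was under 0.2 FPKM in every sample, and MAP2K5, the kinase of ERK5, was between 5.24 and 7.22 FPKM in all 10 samples.

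Of 12 partner proteins, corepressors, acetyltransferases and ubiquitin ligases that act on KLFs, 0 passed with PKC412 in either line. Between the lines in DMSO, SIN3B, HDAC1 and HDAC3 were higher in MDA-MB-468 and 0 genes were lower, 3 of 12 against 42.4% of all genes tested. The call of SIN3B was missed with TPM (limma, adjusted p = 0.0697), and HDAC1 moved from 0.82 to 0.52 with median-ratio rescaling. HDAC3 was at 58.1 and 62.2 FPKM in MDA-MB-468 and at 19.5 and 24.4 FPKM in ZR75-1. In PKC412, HDAC1, HDAC2 and HDAC3 were higher, by 0.87 to 3.10 on the log2 scale, and the corepressor CTBP1 and the acetyltransferase CREBBP were lower, by 0.36 and 0.69. Both of the latter calls were missed with TPM (limma, adjusted p = 0.0959 and 0.0996), and median-ratio rescaling put CTBP1 at -0.78 and HDAC1 at 0.44. CTBP1, the partner of KLF3, was between 33.7 and 48.9 FPKM and CTBP2 between 7.04 and 16.5 FPKM in all 10 samples.

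Of 19 genes described as KLF targets, 15 were tested. With PKC412 in MDA-MB-468, 1 was higher, CDKN1A, the cell cycle inhibitor p21 that KLF4 and KLF6 are known to activate, and 0 were lower. CDKN1A was at 27.2 and 28.2 FPKM in DMSO and at 60.4, 59.4 and 61.7 FPKM in PKC412, with a log2 difference of 1.10 ± 0.140 (SE; limma, adjusted p = 0.0104), with little spread within a group. After median-ratio rescaling its log2 difference was 0.77 (limma, adjusted p = 0.263). No target passed in ZR75-1, where CDKN1A was between 157 and 249 FPKM. Between the lines, 3 targets were higher and 7 lower in MDA-MB-468 in DMSO, and 3 were higher and 8 lower in PKC412. These are counts out of 15 genes, where 42.4% of all genes tested passed in DMSO and 58.6% in PKC412. TXNIP, a regulator of glucose uptake, was under 0.01 FPKM in every MDA-MB-468 sample and at 35.5 to 85.8 FPKM in ZR75-1, and MAOB, a monoamine oxidase, was under 0.1 and at 12.0 to 23.7 FPKM. CCND1, cyclin D1, was at 15.6 to 30.4 FPKM in MDA-MB-468 and at 83.9 to 175 FPKM in ZR75-1. FGFBP1, which binds fibroblast growth factors, and KRT4, a keratin of squamous epithelium, were at 71.1 to 84.1 and 43.6 to 55.1 FPKM in MDA-MB-468 and at 0 to 0.056 and 0.511 to 1.67 FPKM in ZR75-1. CCNE1 was higher by 0.46 in DMSO and 0.72 in PKC412 on the log2 scale, and with median-ratio rescaling these were 0.17 (limma, adjusted p = 0.477) and 0.31 (limma, adjusted p = 0.104), the DMSO call being missed with TPM too (adjusted p = 0.0854). Others past the test included THBD and DIO1 under both agents and SMAD7 in PKC412, these 3 lower by 0.36 to 0.96, where the call of SMAD7 was missed with TPM (limma, adjusted p = 0.0607). THBD was listed at 0 in every MDA-MB-468 sample and at 0.389 to 1.07 FPKM in ZR75-1. DIO1 was at 0.495 FPKM or below in every sample, so both were near the floor.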

How the data were processed

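RNA-seq of 10 samples was read from the authors' files, 1 per sample, which hold FPKM per gene symbol. The authors deposited these FPKM from an in-house pipeline, and the submitters' processing notes name hg19, TopHat2 and CASAVA 1.82. The counter, the annotation and the use of strand are not given in the sources used here. Triplicates are described in the methods, and each line had 2 DMSO samples here. FPKM sums were 599228 to 835069, and since low values show no step that 1 read would make, depth is unknown and precision rests on the replicates.

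The values were transformed to log2(FPKM + 1) and a model of the 4 group means was fitted in limma (version 3.58.1, R 4.3.3) with a mean-variance trend and 6 residual degrees of freedom. The fit covered 16071 genes whose group mean exceeded 0.1 FPKM somewhere, all 10 members included, with Benjamini-Hochberg adjustment at 0.05. The steps were tested on simulated data. Transcript GC content and gene positions come from GENCODE 29 on GRCh38 by symbol (20638 genes matched, 88.1%), promoters from RefSeq on GRCh38.p14, and no coordinates were converted. Python 3.11.15, pandas 2.3.3 and matplotlib 3.10.9 were used for the rest.

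The members, the gene lists and the tests were chosen with earlier results of these data known. All 10 members are named, and of the other lists the genes past the threshold or with a mean above 5 FPKM in a group could be named, with values given for some and ranges for the rest. Genes with a pattern most like a member were to be named for members past the threshold with PKC412, of which there were none. Alternatives were other pseudocounts and filters, median-ratio and TPM scaling, a replicate block, each contrast's groups alone, no trend, each sample left out and, added after seeing the data, GC and length adjustment and a block across the lines. KLF3 and KLF7 overlap the transcripts KLF3-AS1 and KLF7-IT1, so their FPKM may hold reads of these. The values of 1 gene in the list of targets are not reported here.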

Additional observations from a re-analysis of the deposited data

How the results depend on the processing

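The number of members past the threshold with PKC412 was 0 in either line under the alternatives run, except that in MDA-MB-468 it ran from 0 to 1 with each sample left out in turn. Between the lines in DMSO it was 3 and ran from 1 to 3 with samples left out, the lowest without replicate 2 of MDA-MB-468 in DMSO, which left KLF2. It was 5 with GC and length adjustment (KLF5 and KLF9 added). Between the lines in PKC412 it was 3, rose to 6 with median-ratio rescaling (KLF4, KLF6 and KLF9 added) and to 5 with the GC and length adjustment (KLF3 and KLF9 added). The cause of these shifts was not tested. Leaving out 1 DMSO sample leaves a group of 1, which is assumed to vary like the others.

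A replicate block within each line gave 0 members and 0 genes past the threshold with PKC412 in either line, and a replicate block across the lines gave 2 members in DMSO and 3 in PKC412. The numbers were not shown to pair the samples: correlations of same-numbered deviations over 7685 genes were -0.69 and -0.61 in MDA-MB-468 and 0.12 and -0.63 in ZR75-1.

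Over all genes, 202 passed with PKC412 in MDA-MB-468, 152 in ZR75-1 and 43 in the difference of the responses. After GC and length adjustment these were 581, 453 and 210. TPM scaling gave 92 in MDA-MB-468, and a pseudocount of 0.1 gave 116 there and 27 in the difference. With the groups of a contrast fitted alone, ZR75-1 kept 2 genes past the threshold and MDA-MB-468 kept 67. The difference gave 68 without a filter on low FPKM and also without the trend. With samples left out, the counts ran from 65 (without MDA-MB-468 DMSO replicate 1) to 333 (without MDA-MB-468 PKC412 replicate 2) in MDA-MB-468, from 58 to 182 in ZR75-1 and from 16 to 62 in the difference. Of the calls higher in PKC412 in MDA-MB-468, 111 of 202 became 68 of 175 with median-ratio rescaling and 63 of 92 with TPM.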
